A study of Homo sapiens with 10 samples.

Results

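Knockout clone 2 was compared with knockout clone 1, a pair of HAP1 clones in which the same gene, RBM4, had been targeted. The comparison used 5 of the 10 libraries of the series, chosen by their labels: 3 libraries of RBM4 knockout clone 1 and 2 of RBM4 knockout clone 2, all sequenced paired-end. HAP1 is an adherent, near-haploid human cell line derived from the leukaemia line KBM-7. The 3 paired-end wild type HAP1 libraries, whose RBM4 was not targeted, entered the fit for its estimate of spread and are given as the level from which each clone departed. Each knockout group was 1 clone, the labels name no treatment, and the edited alleles and the way they were made are not described there. Whether the replicates of a clone were separate cultures is likewise not stated, so p-values measure only the spread between these libraries, which may be technical. With 1 clone on each side, an effect of the edited allele and any other difference between the clones cannot be told apart.

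RBM4 is an RNA-binding protein with RNA recognition motifs and a zinc finger, known for regulating alternative splicing and, in the cytoplasm, translation. Its close paralog RBM4B lies next to it on chromosome 11. The comparison asks which genes differ in expression between clones that share the targeted gene.

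Library totals in the knockout clones ran from 33192095 to 55617525 counts. RBM4 (chr11:66638617-66668374, GRCh38, GENCODE 29) was at 22.3, 22.9 and 24.5 CPM (counts scaled to library size) in clone 1 and at 25.3 and 25.8 CPM in clone 2, against 78.7 to 79.8 CPM in wild type. Its RNA was thus reduced to a like level in both clones, with a log2 difference of 0.14 (SE 0.06) and an adjusted p of 0.523 in edgeR's quasi-likelihood test. RBM4B differed by -0.05 and the read-through gene RBM14-RBM4 by 0.10 on the log2 scale, and neither passed the test. None of the 27 measured genes of a list of RBM4 relatives and chromosome 11 neighbours was called, 2 of them having an unadjusted p below 0.05. Of 15 blood cell markers, 2 passed the filter on low counts and 0 were called, and CD3E, GATA1, HBB, HBG1 and MPO had no counts in any of the 8 paired-end libraries. Summed over the blood list, the level was 47.3 to 49.2 CPM in clone 1 against 45 to 46.2 CPM in clone 2, nearly all of it from the transcription factor gene TAL1.

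The clones differed in a small part of their transcriptome. Among the largest differences were those of the growth factor receptor gene PDGFRA and the ligand gene BMP7, higher in clone 2, and of the transporter genes SLC17A9 and SLC7A3 and the protease inhibitor gene SERPINB1, lower in it. Of 20747 tested genes and repeat subfamilies, 434 (2.09%) were called at an adjusted p below 0.05. Clone 2 was higher for 224 genes and 4 repeat subfamilies (1.1% of those tested) and lower for 206 genes and 0 repeat subfamilies (0.993%). Among the 19683 genes alone, 2.18% were called, 1.14% higher and 1.05% lower. Without clone 2 replicate 1 or replicate 2, 267 and 228 features were called. A difference of at least 2-fold was present in 117 of the higher and 107 of the lower features (1.08% of those tested), and 56 called features differed at least 8-fold. The median absolute log2 difference over all tested features was 0.0979, and 1980 features had an unadjusted p below 0.05. For comparison, 16% of features were called between clone 1 and wild type and 10.8% between clone 2 and wild type, values that share the clone libraries with the direct comparison. All 434 called features had every library of one clone beyond every library of the other, as did 22.8% of all features tested.

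**Figure D1:**
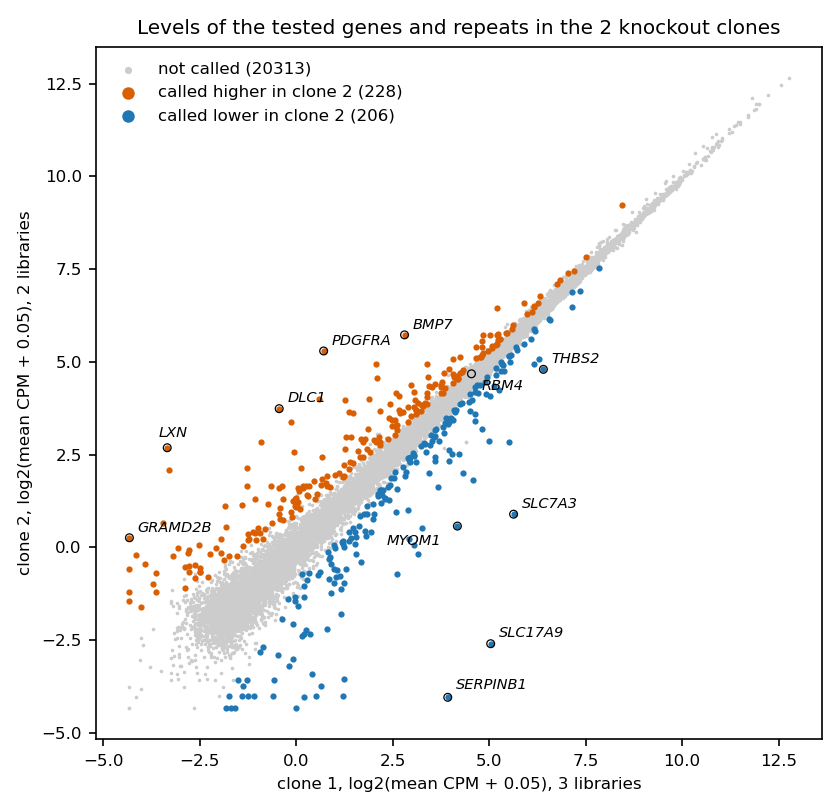
Mean level of each tested gene and repeat subfamily in clone 1 (x axis, 3 libraries) against clone 2 (y axis, 2 libraries), as log2(mean CPM + 0.05). The 228 features called higher in clone 2 are orange, the 206 called lower are blue, and RBM4 lies close to the diagonal while PDGFRA, LXN, SLC17A9 and SERPINB1 lie far from it.

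The share of genes called varied with expression level. Among protein-coding genes, 394 of 13777 (2.86%) were called. The share was 5.77% below 1 CPM, 6.47% from 1 to 10 CPM, 1.86% from 10 to 100 CPM and 0.474% at 100 CPM and above, by the mean of the knockout libraries. None of the 10 called genes in the highest class differed at least 2-fold. Called protein-coding genes spanned a median of 52.2 kb when higher in clone 2 and 48.3 kb when lower, against 33.3 kb over all tested, and their GC content was close to that of the rest (48.4% and 47.5%, against 48.8%). Long intergenic RNAs were called in 16 of 989 (1.62%), antisense RNAs in 7 of 1287 (0.544%) and processed pseudogenes in 1 of 1290 (0.0775%).

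Signalling and membrane proteins were among the genes that were higher in clone 2 by the widest margin. PDGFRA, the alpha receptor for platelet-derived growth factors (chr4:54229097-54298247), stood at 1.51, 1.70 and 1.55 CPM in clone 1 and at 37.9 and 40.4 CPM in clone 2. That is a 24.5-fold difference (log2 4.61, SE 0.11, adjusted p = 1.1e-11 by edgeR), and the wild type libraries, at 0.83 to 1.02 CPM, lay near clone 1, which exceeded them by 0.77 on the log2 scale. BMP7, a secreted bone morphogenetic protein (chr20:57168748-57266629), was at 6.89, 7.0 and 6.96 CPM in clone 1 against 55.9 and 49.9 CPM in clone 2 (log2 2.93, SE 0.08, adjusted p = 5.6e-11). Both clones exceeded the wild type level of 3.42 to 3.77 CPM, clone 2 by 3.87 and clone 1 by 0.94 on the log2 scale. GJA1, which encodes the gap junction protein connexin 43, was at 0.82 to 0.92 CPM in clone 1 against 9.95 and 10.9 CPM in clone 2, with wild type at 0.514 to 0.665 CPM. ANGPTL2, a secreted angiopoietin-like protein, was at 0.31 to 0.70 CPM in clone 1 against 7.05 and 7.12 CPM in clone 2. Wild type, at 0.34 to 0.62 CPM, overlapped with clone 1.

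Several others of these genes had a wild type level between those of the clones. DLC1, named for its deletion in liver cancer, was at 0.63, 0.69 and 0.74 CPM in clone 1 against 12.7 and 13.9 CPM in clone 2, with 1.04 to 1.43 CPM in wild type (log2 4.26, SE 0.16). EPDR1, an ependymin-related secreted protein, was at 1.23 to 1.72 CPM in clone 1 against 16.6 and 15.2 CPM in clone 2, with 3.88 to 4.54 CPM in wild type. CNTNAP2, a neurexin-family adhesion protein, was at 4.10 to 4.22 CPM in clone 1 against 25.1 and 35.9 CPM in clone 2, with 7.45 to 9.36 CPM in wild type. In these genes the clones had moved away from wild type to opposite sides. QPRT, an enzyme of NAD synthesis, and SPAG16, a component of the ciliary axoneme, had the same order, with log2 differences between the clones of 2.76 and 2.28. S100A11, a calcium-binding protein, was at 4.07 to 4.49 CPM in clone 1 against 23.4 and 23.6 CPM in clone 2 (log2 2.47), beside a wild type level of 3.00 to 3.70 CPM. SGCD, the delta subunit of the sarcoglycan complex, was at 2.99 to 4.04 CPM in clone 1 against 14.4 and 17.5 CPM in clone 2, both above wild type (1.09 to 1.38 CPM). PPP2R2B, a regulatory subunit of protein phosphatase 2A, SAMD5 and SPOCK1, a matrix proteoglycan, completed the 15 largest, with log2 differences of 2.16, 2.68 and 1.80.

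**Figure D2:**
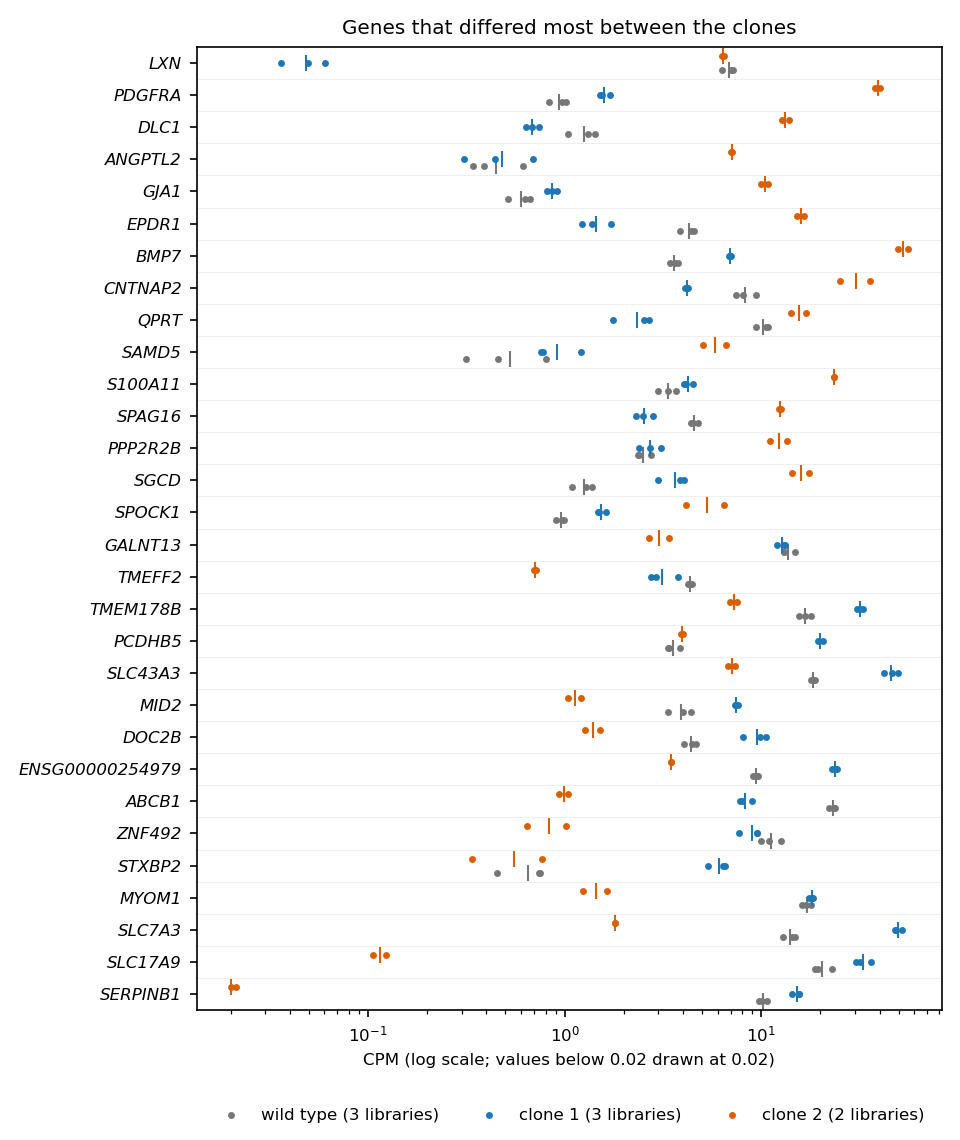
CPM in each of the 8 paired-end libraries (points, log axis) and group means (vertical ticks) for the 15 genes that were higher and the 15 that were lower in clone 2 by the largest fold among called genes whose log2 CPM averaged 1 or more. In each gene the clone 1 and clone 2 points are separate, while the wild type points lie near clone 1 (PDGFRA, MYOM1), with clone 2 (LXN, PCDHB5), between the clones (EPDR1, SLC7A3) or beyond both (ABCB1, TMEFF2).

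Several of the largest differences were in genes all but absent from one clone. LXN, which encodes latexin, an inhibitor of carboxypeptidases (chr3:158645822-158672693), had 6 counts in all in clone 1 and 557 in clone 2. The libraries were at 0.060, 0.036 and 0.049 CPM in clone 1 and at 6.46 and 6.29 CPM in clone 2, a ratio of 137 (exact 95% interval 62.5 to 375). Wild type, at 7.0, 6.31 and 7.20 CPM, lay with clone 2. SERPINB1, a serine protease inhibitor of leukocyte elastase (chr6:2832332-2842006), showed the reverse. It held 517, 861 and 581 counts in clone 1 and 0 and 1 in clone 2, a ratio of 1328 (238 to 52472), with wild type at 9.70 to 10.7 CPM and clone 1 at 14.3 to 15.6 CPM. These intervals cover counting error only.

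The promoters of these genes, the stretch where transcription of each would start, are shown because expression was all but absent in one clone and present in the other. Each is the 250 bases before the RefSeq start on GRCh38.p14, with CG dinucleotides in capitals. The first is chr6:2841864-2842113 and the second chr3:158672649-158672898, both on the minus strand.
SERPINB1: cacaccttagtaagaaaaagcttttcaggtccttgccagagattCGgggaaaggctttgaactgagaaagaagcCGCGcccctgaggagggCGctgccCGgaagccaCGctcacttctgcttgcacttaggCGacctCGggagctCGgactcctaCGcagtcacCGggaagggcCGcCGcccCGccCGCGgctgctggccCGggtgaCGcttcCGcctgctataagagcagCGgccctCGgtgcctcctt
LXN: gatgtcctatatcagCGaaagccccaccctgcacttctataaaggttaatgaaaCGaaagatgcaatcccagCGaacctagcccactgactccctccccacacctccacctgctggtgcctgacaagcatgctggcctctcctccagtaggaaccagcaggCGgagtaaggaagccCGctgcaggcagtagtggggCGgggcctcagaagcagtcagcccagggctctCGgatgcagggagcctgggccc
The SERPINB1 window holds 21 CG dinucleotides, and 30.2% of the 35116 RefSeq promoter windows of this length hold at least as many. The LXN window holds 7, a number that 58.9% of windows reach, and the median over all windows is 11. The letters describe the reference genome, and no sequence of the clones was available in the files used here.

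Under a rule of at least 1 CPM in one clone and at most 3 counts summed over the other, 1 gene was silent in clone 1 and 6 were silent in clone 2. GRAMD2B, a lipid-binding GRAM domain protein, had 0 counts in clone 1 and 47 and 53 in clone 2, at least 49.2-fold higher against a floor of 3 counts over the group, with 14 to 27 counts in the wild type libraries. Besides SERPINB1, the genes silent in clone 2 included HOXC11, a posterior homeobox gene (298 counts in clone 1, 3 in clone 2), TFPI2, a Kunitz-type protease inhibitor (293 and 1), the ephrin receptor gene EPHA6 (190 and 2) and the histone variant gene H2AJ (142 and 1). Their ratios of clone 1 to clone 2 ranged from 64.4 (17.6 to 536) for EPHA6 to 199 (35.4 to 7870) for TFPI2. All 6 averaged at least 1 CPM in wild type as well as in clone 1. In a further 10 genes the low clone held 4 to 14 counts in all. Among them were SLC17A9, with 4207 counts in clone 1 against 10 in clone 2, and KCNQ5, with 164 against 4. In the other direction were TAFA5, a secreted chemokine-like protein, with 5 against 134, and the long noncoding RNA MIR924HG, with 7 against 371. TAFA5 and MIR924HG were chosen after their values were seen. At a mean of 0.03 CPM in wild type and 0.04 CPM in clone 1, TAFA5 passed the filter on low counts only through clone 2. Its direction was therefore fixed by the filter.

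Among genes that were lower in clone 2, transporters held several of the widest differences. SLC17A9, the vesicular nucleotide transporter (chr20:62952647-62969585), was at 31.9, 30.4 and 36.2 CPM in clone 1 against 0.12 and 0.11 CPM in clone 2, with 18.9 to 23 CPM in wild type (log2 -8.13, SE 0.21, adjusted p = 2.7e-11). SLC7A3, a cationic amino acid transporter on the X chromosome (chrX:70925582-70931125), was at 48.2, 52.3 and 48.2 CPM in clone 1 against 1.81 and 1.81 CPM in clone 2, a 27.4-fold difference (log2 -4.78, SE 0.11). Wild type lay between, at 12.9 to 14.9 CPM, so SLC7A3 had risen in clone 1 and fallen in clone 2. SLC43A3, a purine nucleobase transporter, had the same pattern, with 42 to 49.5 CPM in clone 1 against 7.40 and 6.80 CPM in clone 2, with 18 to 18.7 CPM in wild type. The unnamed gene ENSG00000254979 (chr11:57387365-57424059) overlaps SLC43A3 on its strand and followed it (log2 -2.77 and -2.69), so their reads cannot be told apart here. ABCB1, the multidrug efflux pump P-glycoprotein (chr7:87503633-87713323), was at 7.76, 9.01 and 8.02 CPM in clone 1 against 0.94 and 1.04 CPM in clone 2 (log2 -3.06, SE 0.13). Both clones were below the wild type level of 22.3 to 23.8 CPM.

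The rest of the most reduced genes had varied roles. MYOM1, a structural protein of the sarcomere M-band, was at 17.5 to 18.4 CPM in clone 1 against 1.24 and 1.64 CPM in clone 2, with wild type at 16.1 to 17.9 CPM. The zinc finger gene ZNF492 (log2 -3.41) and GALNT13, a transferase that starts O-linked glycosylation (-2.08), were likewise called against wild type in clone 2 and not in clone 1 (adjusted p = 0.11 and 0.52 there). STXBP2, a partner of syntaxins in secretion, was at 5.34 to 6.56 CPM in clone 1 against 0.77 and 0.34 CPM in clone 2, and its wild type level of 0.45 to 0.75 CPM overlapped with clone 2. DOC2B, a calcium sensor of vesicle fusion (-2.77), MID2, a microtubule-associated ubiquitin ligase (-2.73), and TMEM178B (-2.14) were above wild type in clone 1 and below it in clone 2. TMEFF2, a membrane protein with follistatin-like modules, fell in both clones against wild type, further in clone 2 (-2.62) than in clone 1 (-0.49), and differed between the clones by -2.13.

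Adhesion and axon guidance genes, which govern how cells recognise and hold on to one another, held many of the calls. Over 4 lists with 213 measured genes, 17 were higher and 13 lower in clone 2 (14.1%, against 2.09% of all features and 2.86% of protein-coding genes), and their median absolute log2 difference was 0.179. Over all 50 gene lists together 4.97% of genes were called, as were 6.47% of protein-coding genes at 1 to 10 CPM. The 4 lists were put together after their values had been seen. The number called was 31 by DESeq2 and 23 when only the knockout libraries were fitted, and ranged from 16 to 29 with 1 library left out, lowest without clone 2 replicate 2. Both directions were present in each of the 4 lists.

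**Figure D3:**
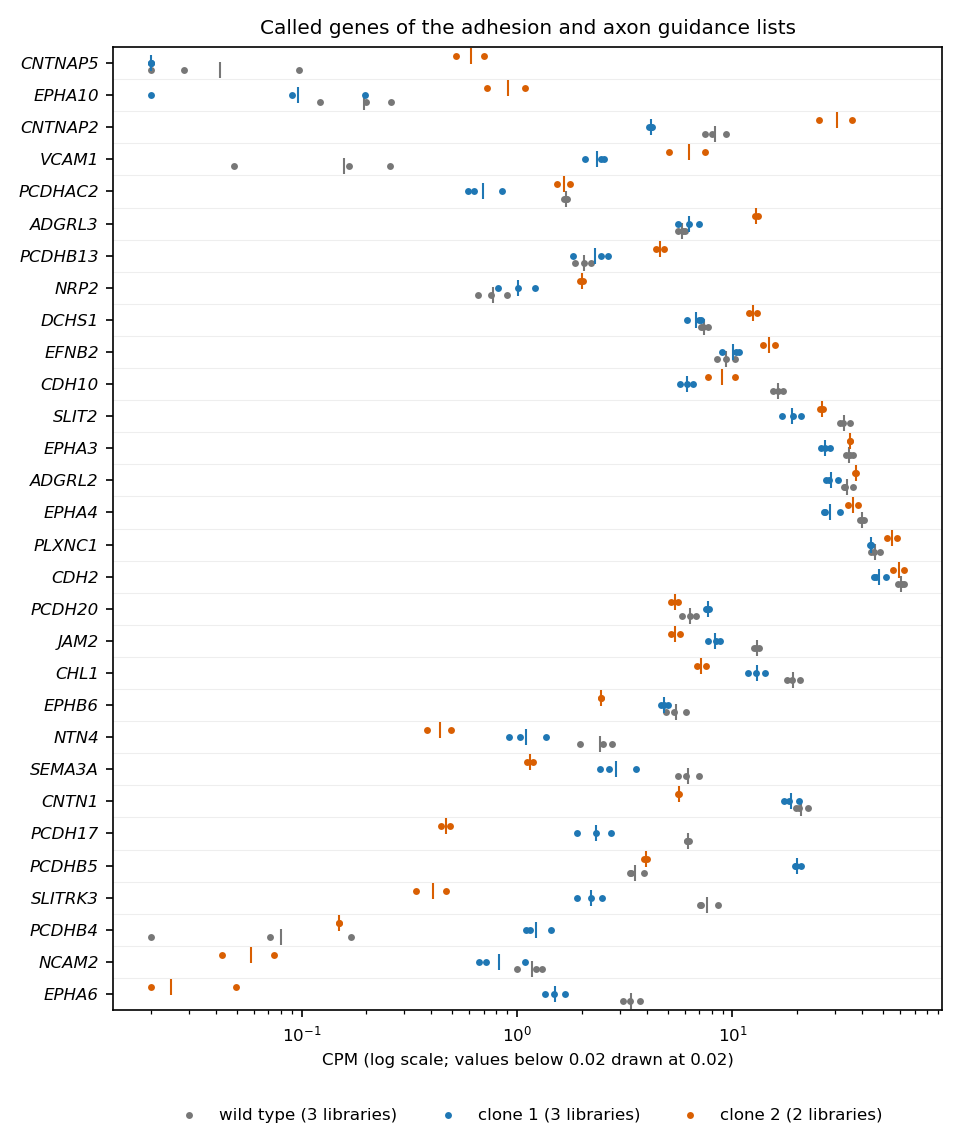
CPM in each of the 8 paired-end libraries (points, log axis) and group means (vertical ticks) for the 30 called genes of the adhesion and axon guidance lists, ordered from those higher to those lower in clone 2. In EPHA6, NCAM2, SLITRK3 and PCDH17 the clone 2 points lie far below both other groups, while in PCDHB4 and PCDHB5 clone 1 lies far above them.

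Among cadherins and protocadherins, 5 of 64 were higher and 4 lower, with 4 to 8 called when a library was left out (4 without clone 2 replicate 2). PCDH17, a non-clustered protocadherin, was at 2.33, 2.73 and 1.90 CPM in clone 1 against 0.45 and 0.49 CPM in clone 2, from 6.16 to 6.26 CPM in wild type (log2 between clones -2.31, SE 0.22). DCHS1, a giant cadherin of planar polarity, was higher in clone 2 by 0.87, at 6.16 to 7.16 CPM against 12.9 and 11.9 CPM. The clustered protocadherin beta genes, each a single exon with its own promoter on chromosome 5, moved in both directions. PCDHB5 was at 20.7, 19.4 and 19.7 CPM in clone 1 against 4.01 and 3.89 CPM in clone 2 (log2 -2.33, SE 0.11, adjusted p = 1.2e-08), and wild type, at 3.35 to 3.88 CPM, lay just below clone 2. Its neighbour PCDHB4 followed, at 1.10 to 1.43 CPM in clone 1 against 0.15 and 0.15 CPM in clone 2, and PCDHB13 was higher in clone 2 by 0.99 (adjusted p = 0.065 without clone 2 replicate 2). At a mean of 0.08 CPM in wild type, PCDHB4 passed the filter on low counts only through clone 1. Its direction was therefore fixed by the filter. The protocadherin beta genes are similar in sequence, and no source used here says how reads with several alignments were divided among them.

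The promoters of PCDHB4 and PCDHB5 are shown because these neighbours were high in clone 1 together, the direction of PCDHB4 being fixed by the filter. Clustered protocadherin promoters are known for a conserved element with a CGCT core, and CGCT is in capitals in the 250 bases before each RefSeq start, chr5:141121568-141121817 and chr5:141134956-141135205 on the plus strand (GRCh38.p14).
PCDHB4: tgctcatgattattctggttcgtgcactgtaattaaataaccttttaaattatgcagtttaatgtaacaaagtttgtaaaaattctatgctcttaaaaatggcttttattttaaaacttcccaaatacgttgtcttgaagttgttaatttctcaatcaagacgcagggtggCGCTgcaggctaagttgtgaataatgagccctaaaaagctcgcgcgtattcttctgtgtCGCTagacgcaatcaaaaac
PCDHB5: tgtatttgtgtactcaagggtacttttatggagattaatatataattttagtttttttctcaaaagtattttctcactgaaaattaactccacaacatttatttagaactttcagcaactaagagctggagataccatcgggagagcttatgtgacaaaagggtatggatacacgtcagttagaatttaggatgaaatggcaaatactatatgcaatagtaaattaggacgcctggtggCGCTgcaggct
CGCT, sought on both strands, occurred 2 times before PCDHB4 and 1 time before PCDHB5, and 64.8% of all RefSeq promoter windows of this length hold it. The longest stretch shared by both windows is ggtggCGCTgcaggct, of 16 bases. It was found in 4 of 35116 windows (0.0114%), those of PCDHB4, PCDHB5, PCDHB10 and PCDHB15. A shared stretch is a description of the reference and does not show that the element was in use.

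Synaptic adhesion genes and contactins had 4 of 44 members higher and 2 lower in clone 2. CNTN1, a contactin, was at 20.4, 18.4 and 17.4 CPM in clone 1 against 5.64 and 5.59 CPM in clone 2, with wild type at 19.8 to 22.5 CPM (log2 -1.74, SE 0.10). SLITRK3, a synapse-organising membrane protein, stood at 1.90 to 2.48 CPM in clone 1 against 0.47 and 0.34 CPM in clone 2, with 7.05 to 8.57 CPM in wild type. ADGRL3, an adhesion G protein-coupled receptor, was higher in clone 2 by 1.03, at 5.56 to 6.97 CPM against 13.1 and 12.7 CPM. Of the integrin and immunoglobulin adhesion list, 1 of 39 was higher and 3 were lower. NCAM2 and CHL1, neural cell adhesion molecules, differed by -3.75 and -0.86, and VCAM1 by 1.42 (adjusted p = 0.062 without clone 2 replicate 2). VCAM1 was raised over wild type (0.05 to 0.26 CPM) in both clones, to 2.07 to 2.53 CPM in clone 1 against 5.10 and 7.46 CPM in clone 2. The axon guidance and Eph list had 7 of 66 higher and 4 lower, and 4 to 10 with a library left out (4 without clone 2 replicate 2). EPHB6, an Eph receptor, was at 4.64 to 5.04 CPM in clone 1 against 2.45 and 2.44 CPM in clone 2, and SEMA3A, a secreted repulsive cue named here after its value was seen, at 2.42 to 3.56 CPM and 1.11 and 1.19 CPM.

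Matrix genes also diverged in both directions. Of 41 measured matricellular and other matrix genes, 4 were higher and 3 lower, and 6 or 7 were called whichever library was left out. That is 17.1%, against 2.09% of all features, 2.86% of protein-coding genes and 4.97% of the genes of all 50 lists together. THBS2, a thrombospondin, was at 74.9, 89.7 and 89.5 CPM in clone 1 against 25.8 and 29.8 CPM in clone 2 (log2 -1.61, SE 0.10, adjusted p = 6.2e-07), and wild type, at 78 to 88.2 CPM, overlapped with clone 1. SPARC, a collagen-binding matricellular protein, was at 56.9, 63.5 and 59.8 CPM in clone 1 against 91.2 and 102 CPM in clone 2 (log2 0.68), both far above wild type at 17.6 to 19.8 CPM. MFAP2, a microfibril protein, was at 22.5 to 27.8 CPM in clone 1 against 10.9 and 10.2 CPM in clone 2 around a wild type level of 14.9 to 17.7 CPM. Of 30 collagens and laminins, COL5A2 (1.14) and COL1A1 (0.41) were higher and LAMA4 (-0.70) and COL25A1 (-0.80) lower (13.3% of the list). COL1A1 lost its call without clone 1 replicates 1 or 2 or either clone 2 replicate (adjusted p = 0.0635, 0.112, 0.195 and 0.133) and COL25A1 without clone 2 replicate 1 (0.17). ADAMTSL4, a secreted protein of the microfibril environment, was at 14.2 to 16.9 CPM in clone 1 against 5.27 and 4.74 CPM in clone 2.

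Markers of other cell types that moved beside these genes were as follows. Of 11 fibroblast and mesenchyme markers, 3 passed the filter and all 3 were called: PDGFRA and COL1A1 were higher in clone 2, and THY1, a gene outside the naming rule, lower (log2 -2.77). Without clone 2 replicate 2, only 1 of the 3 was called. The summed level of the list was 21.2 to 25.4 CPM in clone 1, 64.9 to 66.7 CPM in clone 2 and 14.6 to 15.4 CPM in wild type, most of it from PDGFRA and COL1A1, while COL1A2, DCN and LUM had no counts in any library. Of 12 epithelial markers, 6 passed, KRT8 was higher (log2 1.43) and EPCAM lower (-1.27, adjusted p = 0.17 without clone 2 replicate 2), and GRHL2 and KRT5 were at 0 everywhere. The tight junction gene CLDN1, from the keratin and epithelial list, was lower at 6.79 to 7.34 CPM in clone 1 against 3.86 and 4.19 CPM in clone 2. None of 5 measured neural markers and 1 measured endothelial marker was called.

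The receptor tyrosine kinase, bone morphogenetic protein, WNT and Notch lists held 2 to 4 calls each, and the Hedgehog and Hippo list held 0 of 29. Of 29 receptor tyrosine kinases other than Eph receptors, PDGFRA and RET (log2 0.61) were higher and MET (-0.78) and KIT (-0.47) lower. These were 13.8% of the list, and the shares were 6.67% for bone morphogenetic protein and TGF-beta genes, 4.76% for WNT and 6.9% for Notch genes. They compare with 2.09% of all features, 2.86% of protein-coding genes and 4.97% of the genes of all 50 lists together. MET, the receptor for hepatocyte growth factor, was at 26.4 to 33.5 CPM in clone 1 against 18.7 and 16 CPM in clone 2. The calls of RET and MET were lost without clone 2 replicate 1 (adjusted p = 0.107) and without clone 2 replicate 2 (0.0647) respectively, and KIT lost its call when any library but clone 1 replicate 3 or wild type replicate 3 was left out (0.0688 to 0.259). Of 45 bone morphogenetic protein and TGF-beta genes, BMP7 and INHBB (0.67) were higher and BMP2 (-0.84) lower, and without clone 1 replicate 2 only 1 of the 3 was called. INHBB lost its call there (adjusted p = 0.119) and without clone 2 replicate 1 (0.47), and BMP2 without clone 1 replicates 1 or 2 or clone 2 replicate 2 (0.0614, 0.0554 and 0.352). In the WNT list, WNT5A, a ligand of noncanonical signalling, was at 30.1, 33.9 and 32.5 CPM in clone 1 against 50.5 and 54.6 CPM in clone 2 (log2 0.71, SE 0.07), above wild type at 22.7 to 23.6 CPM. FZD8 was the other call among 42 genes (0.86), lost without clone 1 replicates 2 or 3 or clone 2 replicate 1 (0.101, 0.0693 and 0.404). The Notch list had 2 of 29 higher, DLK1 (1.14) and MAML2 (0.61), which lost their calls without clone 2 replicate 1 (0.0712) and without clone 2 replicate 2 (0.216) respectively.

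The cyclin D1 and D2 genes, which drive entry into the cell cycle, were higher in clone 2. CCND1 was at 4.35, 4.39 and 4.69 CPM in clone 1 against 13.3 and 11.9 CPM in clone 2 (log2 1.49, SE 0.13, adjusted p = 1.0e-05), with 2.17 to 2.99 CPM in wild type. CCND2 was at 13.5, 15 and 13.8 CPM in clone 1 against 26.7 and 24.9 CPM in clone 2 (log2 0.87), around a wild type level of 19.6 to 22.8 CPM. The third D-type cyclin gene, CCND3, looked up after the values were seen, did not pass the test (log2 -0.12, adjusted p = 0.579 by edgeR). CCND1 and CCND2 were the only calls among 54 DNA replication genes (3.7%, against 2.09% of all features). Of 46 mitosis genes, 0 were called. In the ERK feedback and immediate early list, CCND1 and ETV1 (1.10) were higher and NR4A2 (-0.51) lower of 41 (7.32%). ETV1 lost its call without clone 1 replicates 2 or 3 or clone 2 replicate 1 (0.0719, 0.0721 and 0.331), and NR4A2 without clone 2 replicate 2 (0.0869).

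Ion channels were called in 11 of 120, 6 higher and 5 lower (6 in all without clone 2 replicate 1). That is 9.17%, against 2.09% of all features, 2.86% of protein-coding genes and 4.97% of the genes of all 50 lists together. SCN9A, a voltage-gated sodium channel, was at 17.7, 20.4 and 18.9 CPM in clone 1 against 34.8 and 35 CPM in clone 2 (log2 0.87, SE 0.08), both above wild type at 7.33 to 8.03 CPM. GRIA2, an AMPA receptor subunit, was at 23.1, 29.7 and 30.6 CPM in clone 1 against 9.48 and 8.59 CPM in clone 2, and only clone 1 differed from wild type by the test (10.3 to 11.9 CPM, log2 1.36). The potassium channel KCNQ5 was at 1.15 to 1.46 CPM in clone 1 against 0.02 and 0.06 CPM in clone 2. KCNJ2, an inward rectifier, had the reverse, with at most 0.02 CPM in clone 1 against 0.67 and 0.98 CPM in clone 2. With at most 1 count in any wild type or clone 1 library, KCNJ2 passed the filter on low counts only through clone 2. Its direction was therefore fixed by the filter. Among 242 solute carriers, 5 were higher and 6 lower (4.55%; 5 in all without clone 2 replicate 1), the largest being those given above. Of 95 G protein-coupled receptors, 3 were higher and 4 lower (7.37%; 3 in all without clone 2 replicate 1). PTGER3, a prostaglandin E receptor, was the most abundant of the lower ones, at 73.6, 81.9 and 77.4 CPM in clone 1 against 32.1 and 35.8 CPM in clone 2 around a wild type level of 46.4 to 47.9 CPM.

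Genes of retinoid and hormone signalling and transcription factor genes differed in both directions. Over all 50 gene lists together, 4.97% of genes were called. The retinoic acid, steroid and thyroid hormone list had 2 of 45 higher and 6 lower (17.8%, against 2.09% of all features), 3 in all without clone 2 replicate 2. ALDH1A2, the main retinoic acid synthesising enzyme of the embryo, was at 0.12, 0.14 and 0.02 CPM in clone 1 against 0.57 and 0.60 CPM in clone 2, a small remainder of the 48.5 to 53 CPM in wild type. The homeobox gene NKX2-1 was at 3.12 to 3.38 CPM in clone 1 against 7.38 and 6.74 CPM in clone 2 (log2 1.10), where clone 2 did not differ from wild type by the test (7.29 to 9.16 CPM, adjusted p = 0.24). PRDM16, a chromatin regulator of brown fat and stem cells, was higher in clone 2 by 0.68 and in both clones over wild type, at 9.52 to 11 and 16.2 and 17.1 CPM against 2.66 to 2.72 CPM. FOXF1, a mesodermal forkhead factor, was at 21.6 to 23.8 CPM in clone 1 against 14.3 and 11.1 CPM in clone 2, against 2.57 to 2.90 CPM in wild type. Of 18 pluripotency genes, the human pluripotency-related RNA ESRG (1.59) and LIN28B (0.37; adjusted p = 0.0836 without clone 2 replicate 2) were higher and TERT, the catalytic subunit of telomerase, lower. These were 16.7% of the list. TERT was at 12.1 to 15.3 CPM in clone 1 against 8.94 and 7.84 CPM in clone 2, below the wild type level of 18.1 to 19.8 CPM. HOXC11 was the single call among 27 HOX cluster genes (3.7%, against 2.09% of all features).

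Imprinted genes, expressed from the copy of 1 parent, had 4 of 30 higher in clone 2 and 0 lower. That is 13.3%, against 2.09% of all features, 2.86% of protein-coding genes and 4.97% of the genes of all 50 lists together. With a library left out, 1 to 3 were called (1 without clone 2 replicate 1). MKRN3, of the imprinted region on chromosome 15, was at 0, 0 and 0.05 CPM in clone 1 against 0.57 and 0.79 CPM in clone 2, and at 0 to 0.07 CPM in wild type. With at most 3 counts in any wild type or clone 1 library, MKRN3 passed the filter on low counts only through clone 2. Its direction was therefore fixed by the filter. DLK1, L3MBTL1 and MEST were the others, all at no more than 2.70 CPM in any knockout library. Of 439 ZNF genes, 6 were higher and 5 lower (2.51%, close to the share of all features). ZNF518B was at 10.2 to 11 CPM in clone 1 against 23.6 and 24.3 CPM in clone 2 (log2 1.18), and ZNF704 at 13.7 to 16.9 CPM and 6.24 and 5.99 CPM (-1.36). CELF2, an RNA-binding splicing regulator, was the single call among 50 splicing regulators (2%, close to the share of all features). It was at 35.9, 39.6 and 38.5 CPM in clone 1 against 18.4 and 19 CPM in clone 2. Wild type lay between the clones, at 28.5 to 32 CPM.

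Among innate immune lists, those of NF-kB, nucleic acid sensing, APOBEC3 and interferon-stimulated genes held 2 or 3 calls each, and the MHC class I list held 1 of 28 (3.57%). The shares called were 10.7% in the NF-kB list, 7.41% in the nucleic acid sensing list, 5.41% in the APOBEC3 and retroelement silencing list and 4.55% among interferon-stimulated genes. They compare with 2.09% of all features, 2.86% of protein-coding genes and 4.97% of the genes of all 50 lists together. The APOBEC3 and interferon shares were close to that of all lists. The interferon share includes MX1, which had at most 8 counts in any wild type or clone 2 library. MX1 passed the filter on low counts only through clone 1, so its direction was fixed by the filter. Within the APOBEC3 and retroelement silencing list (37 measured), the DNA cytidine deaminase genes APOBEC3C and APOBEC3B went opposite ways. APOBEC3C was at 10.2, 11.5 and 10.8 CPM in clone 1 against 19.6 and 21.4 CPM in clone 2 (log2 0.91, SE 0.10), both above wild type at 2.83 to 3.56 CPM. APOBEC3B was at 4.47, 3.48 and 3.38 CPM in clone 1 against 1.36 and 1.21 CPM in clone 2 (log2 -1.55, SE 0.19), with wild type at 1.06 to 1.28 CPM. These neighbours are similar in sequence, so a share of their reads may have been divided between them in counting. Of 44 interferon-stimulated genes, HERC5, a ubiquitin-like ligase for ISG15, was higher at 10.4 to 12.8 CPM in clone 1 against 21.3 and 21.1 CPM in clone 2, and MX1 was lower at under 1 CPM in every library, a call lost without clone 1 replicates 2 or 3, either clone 2 replicate or wild type replicate 1 (adjusted p = 0.0511 to 0.342). The nucleic acid sensing list had IKBKE higher (1.53) and CGAS lower (-2.18) of 27, and CGAS lost its call without clone 1 replicates 1 or 2, either clone 2 replicate, or wild type replicates 1 or 3 (0.0696 to 0.366). All 3 NF-kB list calls of 28 were higher and none was called without clone 2 replicate 2. The single call of 18 BCL2 family genes (5.56%) was HRK, a pro-apoptotic BH3-only gene. It was at 1.12 to 1.53 CPM in clone 1 against 3.91 and 2.95 CPM in clone 2.

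Several lists held no called member. Ribosomal protein, mitochondrially encoded, mitosis, heat shock chaperone, p53 target, Hedgehog and Hippo, and RBM4 locus genes together held 281 measured genes, of which 0 were called by edgeR and 1 by DESeq2, with 17 at an unadjusted p below 0.05 and at most 2 called with a library left out. These 7 lists were put together because none had a call, so their count of 0 was fixed by that choice and is a description only. Their median absolute log2 difference was 0.0709. All 80 measured ribosomal protein genes were between -0.26 and -0.00 on the log2 scale, with a median of -0.08. The cancer-testis antigen list also had 0 of 20 called. Cholesterol and fatty acid synthesis had 3 of 45 higher and 0 lower. That is 6.67%, against 2.09% of all features and 4.97% of the genes of all 50 lists together. HMGCS1, which makes the precursor of mevalonate, was at 175 to 191 CPM in clone 1 against 222 and 230 CPM in clone 2 (log2 0.30). The list had 0 calls without either clone 2 replicate and 0 when only the knockout libraries were fitted.

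**Figure D4:**
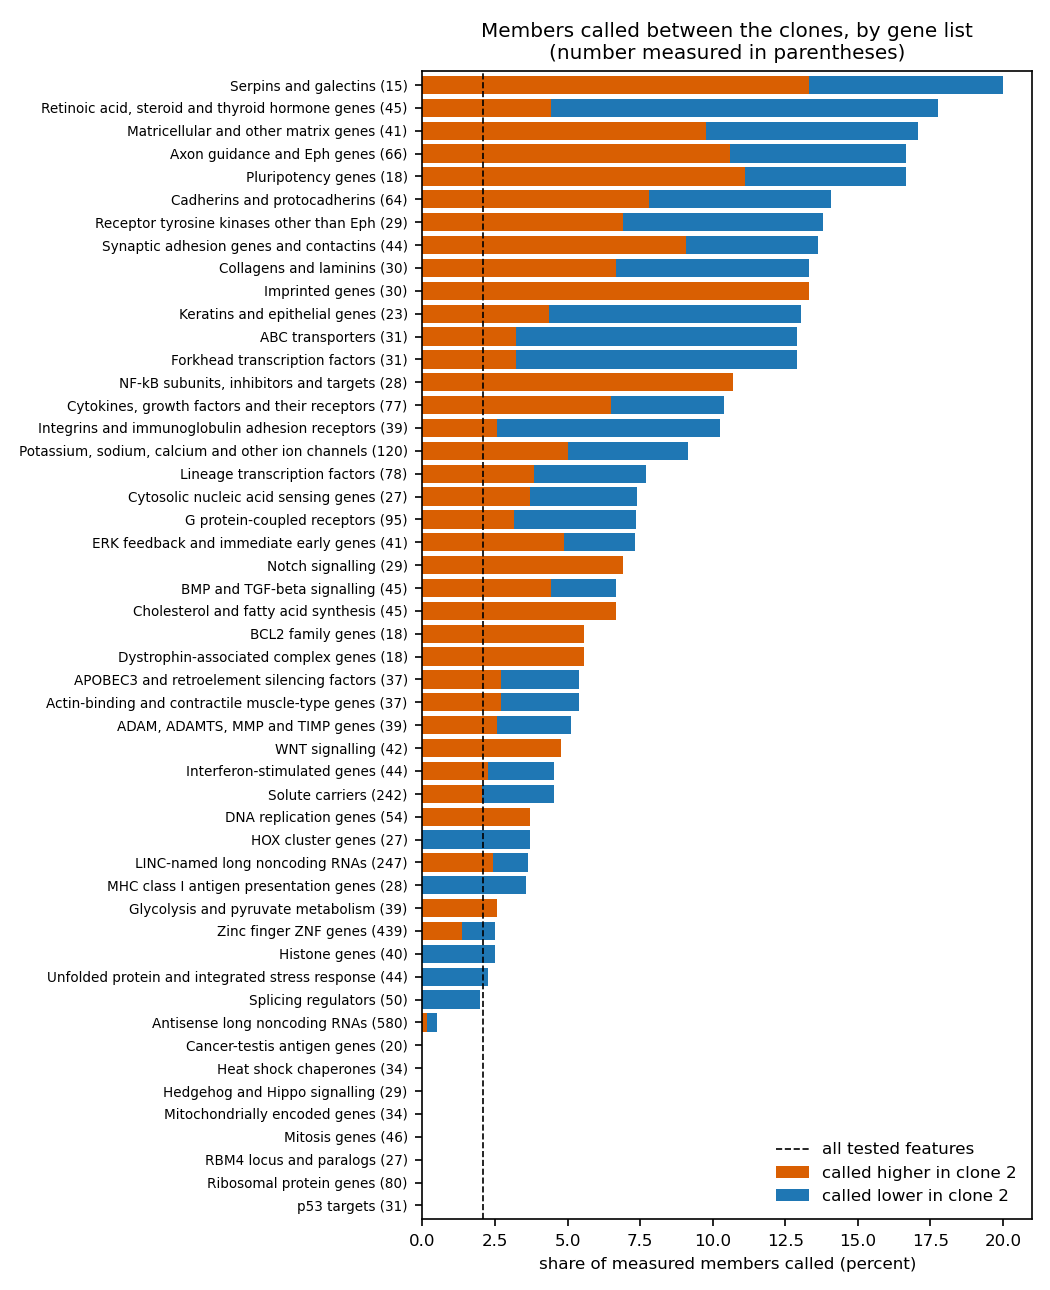
Share of measured members called between the clones for each of 50 gene lists (percent, x axis), divided into members higher (orange) and lower (blue) in clone 2, with the share over all tested features, 2.09%, as a dashed line. Serpins and galectins (3 of 15) and retinoid and hormone genes (8 of 45) lie at the top, and 8 lists hold no called member.

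Repeat subfamilies were counted beside the genes, and 4 of 1064 (0.376%) were called, all higher in clone 2 and all from the ERV1 class of endogenous retroviruses, of which 286 were measured (5 by DESeq2). MER83B was at 0.73, 0.76 and 1.63 CPM in clone 1 against 4.13 and 4.53 CPM in clone 2 (log2 2.07, SE 0.28, adjusted p = 0.00097), and wild type was at 0.63 to 0.90 CPM. It was called under every alternative. LTR25 (0.57), LTR9C (1.05) and HUERS-P3-int (0.36) were not: each lost its call without clone 1 replicate 1, clone 1 replicate 2 and clone 2 replicate 1, with adjusted p of 0.0568, 0.0948 and 0.369 for LTR25, 0.0787, 0.184 and 0.222 for LTR9C and 0.0667, 0.114 and 0.123 for HUERS-P3-int. LTR9C and HUERS-P3-int also lost it without clone 2 replicate 2 (0.17 and 0.228) and without 2 of the wild type libraries each (0.0506 and 0.0624 for LTR9C, 0.0567 and 0.0523 for HUERS-P3-int). The median log2 difference over all repeats was 0.24, against -0.01 over genes. Repeats took 3.56%, 4.05% and 5.37% of counts in the clone 1 libraries and 4.83% and 5.15% in clone 2, so clone 1 replicate 3 lay above clone 2 and the clones overlapped in total repeat share. Without clone 1 replicate 3, 18 subfamilies were called higher, against 1 without clone 1 replicate 1, clone 1 replicate 2 or clone 2 replicate 1 and 2 without clone 2 replicate 2 or wild type replicate 2.

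Neighbouring genes were also compared along the genome. Chromosome medians of the log2 difference lay between -0.03 and 0.01 for the autosomes and at -0.06 for the X chromosome, whose 698 tested genes included 10 called higher and 10 lower. The median deviation of X-linked genes from the mean over libraries was 0.03, 0.04 and 0.00 in clone 1 and -0.05 and -0.05 in clone 2, so the clones were separate by a narrow margin. Over 1232 windows of 50 neighbouring genes, medians ran from -0.12 to 0.10 and 0 exceeded 0.2 in size. Among 430 called genes, 51 lay in runs of neighbouring tested genes called the same way: 24 runs of 2 and 1 run of 3, LIN28B, BVES and POPDC3 on chr6:104936616-105179995, all higher in clone 2 (log2 0.37, 0.80 and 0.85). Some runs joined overlapping genes, such as ENSG00000254979 and SLC43A3. Others joined distant ones, such as GALNT13 and NR4A2 (chr2:153871913-156342348). The number to be met by position alone was not computed, so 51 is a description only. ABCB1 ran with RUNDC3B (-1.25), TFPI2 with GNG11 (-1.07), HOXC11 with the long noncoding RNA HOTAIR (27, 31 and 18 counts in clone 1, 1 and 0 in clone 2), ZNF492 with the pseudogene ZNF849P (-3.39), and S100A11 with S100A6 (1.55). The partners were named after their values were seen, and reads of overlapping genes such as HOXC11 and HOTAIR cannot be told apart without the strand setting of the counting.

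**Figure D5:**
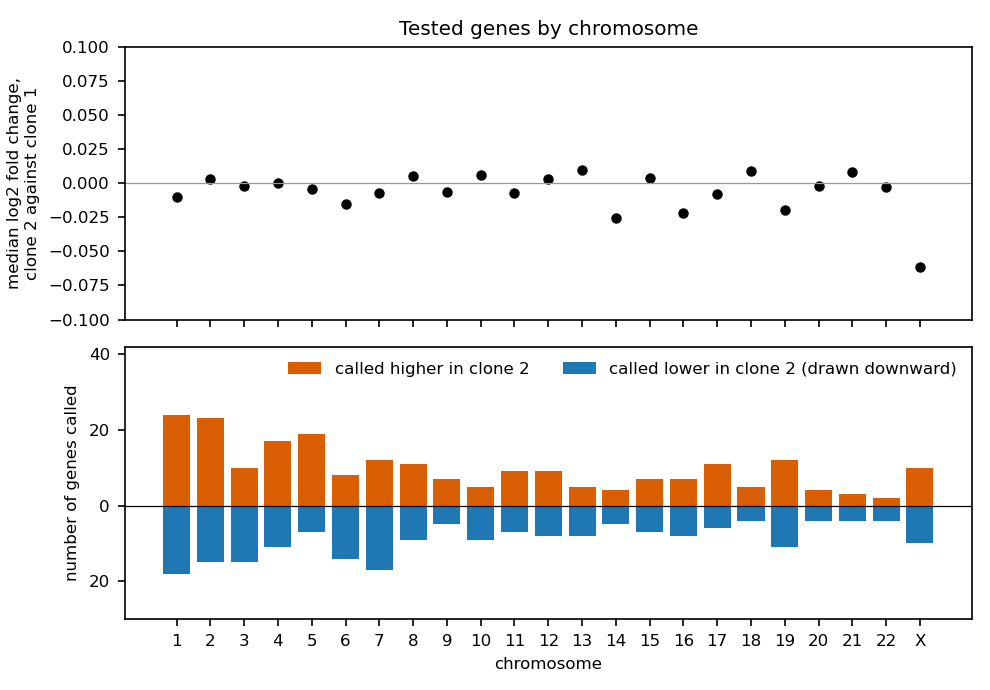
Median log2 difference between clone 2 and clone 1 over the tested genes of each chromosome (upper panel) and number of genes called higher (orange) and lower (blue, drawn downward) in clone 2 (lower panel). Autosomal medians lie between -0.03 and 0.01 and the X chromosome at -0.06, and called genes are present on every chromosome drawn.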

How the data were processed

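RNA of HAP1 cells was sequenced from stranded mRNA libraries, per the labels' protocols. The deposited table holds the authors' whole-number counts of reads per gene (58051 rows) and per repeat subfamily (1187 rows), not normalized. Per the submitters' processing notes, STAR 2.5.2a aligned the reads and the genome build was hg38, that is GRCh38. No source used here gives the version or strand setting of the counting tool, its treatment of reads with several alignments, or its annotation release. Symbols were matched for 56948 identifiers and GENCODE 29 coordinates for 57447. The 2 single-end libraries were not used, since the label of the knockout names no clone.

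Counts of the 8 paired-end libraries (wild type 3, clone 1 3, clone 2 2) were filtered with filterByExpr, which left 20747 features (19683 genes, 1064 repeats), and scaled with TMM factors. edgeR 4.0.16 (R 4.3.3) gave a robust quasi-likelihood F test with 1 mean per group. Benjamini-Hochberg adjustment ran over the whole table, and calls were made at an adjusted p under 0.05. Every log2 difference is clone 2 minus clone 1 unless another contrast is named. CPM are edgeR's cpm values on TMM-scaled library sizes. Standard errors (SE) were taken as the size of the log2 value over the square root of F. Ratios of genes with few counts have exact (Clopper-Pearson) 95% intervals.

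Genes were named by a rule: RBM4, RBM4B, RBM14 and RBM14-RBM4, the 15 per direction with the largest log2 difference among called genes of at least 1 mean log2 CPM whose clones did not overlap, the 2 called members per list and direction with the smallest p, up to 5 repeats per direction and up to 5 silent genes per clone. SEMA3A, CCND3, THY1, PCDHB4, MEST, L3MBTL1, TAFA5, MIR924HG and partners of neighbouring runs lie outside it. The values of 1 gene silent in clone 2 are not reported here. The comparison, the 50 gene lists and 5 marker lists were chosen with earlier results of these data known. Alternatives were other scaling, filter, test (DESeq2 1.42.0), GC correction, sample-number and replicate terms, the knockout libraries alone, and leaving out each library. In simulated data of the same means and library sizes (20747 features), 52% of features changed 1.3-fold, 68% at 1.5-fold, 90% at 2-fold and 98% at 4-fold were recovered, and 17 of 20547 unchanged features were called.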

Additional observations from a re-analysis of the deposited data

Results flagged for a closer look

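A total of 37 features were called against wild type in both clones but in opposite ways, 13 of them higher in clone 2, and all 37 were also called between the clones, which is the test of that difference. The 22 among them named by the rule are given here with the log2 difference of clone 2 from clone 1. Above wild type in clone 2 and below it in clone 1 were GRAMD2B (8.59), DLC1 (4.26), EPDR1 (3.48), CNTNAP2 (2.87), QPRT (2.76), SPAG16 (2.28), ZNF518B (1.18) and CCND2 (0.87). Below wild type in clone 2 and above it in clone 1 were SERPINB1 (-10.04), SLC17A9 (-8.13), HOXC11 (-5.96), SLC7A3 (-4.78), ENSG00000254979 (-2.77), DOC2B (-2.77), MID2 (-2.73), SLC43A3 (-2.69), TMEM178B (-2.14), IL12RB2 (-1.93), ZNF704 (-1.36), MFAP2 (-1.23), PTGER3 (-1.19) and CELF2 (-1.02). Fitted values of GRAMD2B, SERPINB1 and HOXC11, with 0 to 3 counts in one clone, depend on the prior count and give no bound. No group held 4 or more libraries, so single libraries were not examined for distance from their group.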

How the results depend on the processing

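Called features numbered 442 with DESeq2 size factors, 428 with DESeq2, 431 with TMM factors from genes alone, 517 with GC correction, 610 with a term for sample number, 307 with the knockout libraries alone and 291 in libraries of sample number 10 or above. Of the 434 features called, 404 were also called by DESeq2 and 302 with the knockout libraries alone, and all 434 kept their direction in each of these fits. Without a filter on low counts, 688 features were called (genes 338 higher and 314 lower, repeats 35 higher and 1 lower). In libraries of sample number below 10, with 1 library per knockout clone assumed to vary like the rest, 181 were called (94 genes higher, 83 lower, 131 at least 2-fold). Repeats higher numbered 1 with the knockout libraries alone, 1 at sample numbers 10 or above and 9 with the sample-number term. With 1 library left out, called features ranged from 228 to 419 (lowest without clone 2 replicate 2, 267 without clone 2 replicate 1), genes higher from 124 to 205, genes lower from 102 to 196, repeats higher from 1 to 18 and features of at least 2-fold from 159 to 221. Of 131 named features called, 82 were called under all 18 alternatives, 49 were lost under at least 1 and 0 reversed. RBM4B and RBM14, not called, changed sign: RBM4B (-0.05) was at 0.046 in libraries of sample number 10 or above and between -0.0937 and 0.0038 with 1 library left out, and RBM14 (0.05) was at -0.034 in the former and between -0.030 and 0.13 in the latter. The cause of these changes was not tested, beyond the smaller number of libraries or larger number of features in some fits.

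With the replicate number as a block, 431 features were called, 377 of them among the 434. Deviations of same-numbered libraries of the clones correlated at 0.253 and 0.197. With the clone 2 libraries swapped, the values were -0.253 and -0.197, because the deviations of 2 libraries mirror each other. Same-numbered libraries of wild type and the clones ran from -0.233 to 0.054. The labels do not say whether same-numbered libraries shared a culture or batch, so the numbers were not taken as pairs. A test by edgeR of whether the clone difference varied between the sample-number blocks called 0 features, with 451 at an unadjusted p below 0.05. Depth and library number limit small differences: in simulated data 52% of 1.3-fold changes were recovered among features with a mean above 1 CPM.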
